A study of Mus musculus with 4 samples.

Results

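The adenylate cyclases, cyclic nucleotide phosphodiesterases and protein kinase A subunits set the level and the action of cyclic AMP, and their messenger RNAs were compared here between control and Myc-depleted bronchoalveolar stem cells. The members were all probe sets whose gene symbol in the platform annotation named an adenylate cyclase (Adcy), a numbered phosphodiesterase (Pde) or a protein kinase A subunit (Prkar1 and Prkar2, Prkaca and Prkacb). This gave 40 genes of the 18,193 named on the array, read by 103 of the 45,037 probe sets compared, namely 22 probe sets of 10 adenylate cyclases, 61 of 24 phosphodiesterases and 20 of 6 protein kinase A subunits. Of these, 67 probe sets of 32 genes passed the filter on low values, a mean over the 4 arrays of at least 5.08 on the log2 scale, and were tested. The other 36 probe sets stayed under it, and they included every probe set of Adcy8, Adcy10, Pde1c, Pde6a, Pde6b, Pde6c, Pde7b and Pde9a. Pde4c is not analysed here. Pde12 carries the family name but acts on oligoadenylates and mitochondrial RNA rather than on a cyclic nucleotide, and it is counted with the family because its symbol fits the rule.

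Adenylate cyclases make cyclic AMP from ATP. Most are membrane proteins that the stimulatory G protein switches on when a hormone binds its receptor, while inhibitory G proteins, calcium or G protein beta-gamma subunits tune single isoforms. Phosphodiesterases break cyclic AMP, cyclic GMP or both, and so end the signal. Cyclic AMP acts mainly by releasing the catalytic subunits of protein kinase A from their regulatory subunits. In the lung the pathway is known for beta-adrenergic relaxation of airway muscle, for fluid clearance and for surfactant secretion.

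Expression was measured on 4 one-colour Affymetrix mouse expression arrays, 2 of control cells and 2 of cells in which c-Myc had been depleted. Bronchoalveolar stem cells (BASCs), which are taken to give rise to both Clara cells and alveolar cells, came from lungs of ICR mice aged 4 to 6 weeks and were sorted as CD31-, CD45-, CD34+ and Sca-1+ before culture on irradiated mouse embryonic fibroblasts. Depletion used a lentiviral short hairpin RNA to c-Myc with puromycin selection over several passages. The study calls the array controls wild type and does not say whether they received a control virus or the drug, so infection, selection and loss of c-Myc cannot be told apart, and neither the number of mice nor the origin of the 2 arrays of a group is given. The p-values thus reflect no more than the scatter among 4 arrays, part or all of which may be technical. Each value below is the log2 expression of 1 probe set, each difference is Myc-depleted minus control and comes with its standard error (SE), and values of different probe sets are not comparable as amounts of RNA.

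The labels were checked on Myc, whose 1 probe set stood at 9.21 and 9.69 on the control arrays and at 8.35 and 8.50 on the Myc-depleted arrays, 49.2% of control (difference -1.02, SE 0.21, adjusted p = 0.363 by limma). The poly-A spike-ins, bacterial transcripts added to each RNA before labelling, did not follow the groups. Their 3′ minus 5′ signal, the mean over 8 probe set pairs, was 1.89 on control 1 and 1.78 on Myc-depleted 2 against 3.12 on control 2 and 3.64 on Myc-depleted 1. Of the sort markers, Cd34 lay at 3.66 to 3.97, under the filter, and Ly6a (Sca-1) is not analysed here. The defining lung markers Sftpc, Scgb1a1, Nkx2-1 and Sftpa1 were also under the filter, whereas Sftpb lay at 5.68 to 5.81 and Epcam at 6.89 to 7.80. Epcam stood at 6.89 and 7.12 in control and at 7.80 and 7.52 in Myc-depleted cells. Its difference was 0.65 (SE 0.17, unadjusted p = 0.0173 by limma), and that of Sftpb was 0.04 (SE 0.12). Of 3 alveolar type I markers, Pdpn, which fibroblasts also express, lay at 11.63 to 11.87, Aqp5 at 5.07 to 5.28, and Ager was under the filter on its mean. Of 3 endothelial markers, Pecam1 and Cdh5 were under it and Kdr lay at 5.45 to 5.82, and of 3 blood markers, Ptprc and Cd52 were under it and Laptm5 lay at 5.62 to 5.69. Col1a1, Col1a2, Col3a1, Vim and Acta2, genes of fibroblasts and mesenchymal cells, lay at 12.19 to 14.56 on all 4 arrays, while Dcn and Thy1 lay at 4.68 to 6.08 and Lum was under the filter. Cd34 and 4 of 6 lung epithelial markers, by which the cells are labelled, were thus too low to test. In such bulk samples fewer cells of a type and less RNA per cell cannot be told apart.

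The promoters of the 5 genes whose differences lead the text below are shown to compare their sequences around the start of transcription. RefSeq (mouse build GRCm38.p6) held windows of 300 bases, 250 before to 50 after a start, for 31 of the 40 genes, 68 windows in all. They were searched on both strands for the E-box that Myc with Max binds (CACGTG), for the core of the cyclic AMP response element (TGACG) and for the full element (TGACGTCA), which contains the core. Capitals mark the E-box (CACGTG) and the core, written TGACG on one strand and CGTCA on the other. Each window runs 5′ to 3′ on the strand of its gene, and for Adcy7 the window with a match among 3 is shown.
Adcy7 (chr8:88282742-88283041, plus strand): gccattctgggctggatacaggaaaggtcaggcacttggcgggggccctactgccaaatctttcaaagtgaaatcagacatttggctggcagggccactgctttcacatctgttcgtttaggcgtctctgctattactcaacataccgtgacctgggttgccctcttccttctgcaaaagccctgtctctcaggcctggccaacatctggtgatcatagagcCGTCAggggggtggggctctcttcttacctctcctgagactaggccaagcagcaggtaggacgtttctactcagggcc
Adcy9 (chr16:4420449-4420748, minus strand): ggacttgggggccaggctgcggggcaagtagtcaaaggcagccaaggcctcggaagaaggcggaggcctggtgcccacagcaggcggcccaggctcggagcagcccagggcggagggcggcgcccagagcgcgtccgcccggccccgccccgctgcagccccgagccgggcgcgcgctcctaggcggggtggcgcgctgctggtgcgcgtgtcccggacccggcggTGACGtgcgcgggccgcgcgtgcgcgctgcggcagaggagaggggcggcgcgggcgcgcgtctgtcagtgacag
Adcy1 (chr11:7063183-7063482, plus strand): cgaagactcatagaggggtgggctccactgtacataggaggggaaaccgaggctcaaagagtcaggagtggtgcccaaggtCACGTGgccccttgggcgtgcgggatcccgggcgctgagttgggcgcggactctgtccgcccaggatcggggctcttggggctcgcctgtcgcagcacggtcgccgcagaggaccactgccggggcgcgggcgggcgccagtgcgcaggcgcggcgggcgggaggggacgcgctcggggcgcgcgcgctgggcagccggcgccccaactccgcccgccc
Pde8a (chr7:81213015-81213314, plus strand): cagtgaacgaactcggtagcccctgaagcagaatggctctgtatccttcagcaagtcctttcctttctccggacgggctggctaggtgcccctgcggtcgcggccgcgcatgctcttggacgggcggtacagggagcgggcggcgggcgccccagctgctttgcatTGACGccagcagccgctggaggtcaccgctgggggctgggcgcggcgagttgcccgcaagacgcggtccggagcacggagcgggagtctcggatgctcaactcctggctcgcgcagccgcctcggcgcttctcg
Pde5a (chr3:122728908-122729207, plus strand): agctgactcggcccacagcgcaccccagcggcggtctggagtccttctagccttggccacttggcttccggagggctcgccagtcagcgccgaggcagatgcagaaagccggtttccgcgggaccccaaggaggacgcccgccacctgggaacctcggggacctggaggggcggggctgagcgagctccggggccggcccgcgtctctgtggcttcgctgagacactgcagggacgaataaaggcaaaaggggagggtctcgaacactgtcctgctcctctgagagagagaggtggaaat

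The core began 28 bases before the start in Adcy7, 24 bases before it in Adcy9 and 84 bases before it in Pde8a, so the gene that was lower and 2 that were higher shared it. It was found in 16 of the 68 member windows, from 14 genes, and in 20.8% of all 32,851 RefSeq windows. The E-box lay 169 bases before the start of Adcy1. It was found in 5 of the 68 member windows, those of Adcy1, Prkaca, Prkar1a, Prkar1b and Prkar2b, and in 7.15% of all windows. Pde5a held none of the motifs, and the full element was found in 2 member windows, both of Prkar1a, and in 1.79% of all windows. These matches describe letters and not binding.

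Among the adenylate cyclases, Adcy7 was lower and Adcy9 and Adcy1 were higher in Myc-depleted cells, and no other cyclase had an unadjusted p under 0.05. Adcy7 is a cyclase that G protein beta-gamma subunits enhance and is known from blood cells. Its probe set 1456307_s_at stood at 7.79 and 8.14 on the control arrays and at 5.62 and 5.28 on the Myc-depleted arrays. The groups lay far apart, and Myc-depleted cells held 17.5% of the control level (difference -2.52, SE 0.20, 95% confidence interval -3.08 to -1.95, unadjusted p = 0.000238, adjusted p = 0.222 by limma). Setting each Myc-depleted array against each control array gave differences from -2.86 to -2.17. The second tested probe set, 1450065_at, stood at 6.23 and 6.60 against 4.56 and 4.59, a difference of -1.84 (SE 0.17). It passed the filter only through the control arrays, since the Myc-depleted mean of 4.57 is under the threshold. The third probe set, 1420970_at, was too low to test at 5.29 and 5.24 against 4.68 and 4.55 and ran the same way. Because Adcy7 is prominent in blood cells, the blood markers are given beside it: all 3 were on the array, Ptprc and Cd52 were under the filter, and their summed level ran from 6.54 to 6.58 in control and from 6.63 to 6.67 in Myc-depleted cells. That sum joins probe sets whose values are not comparable as amounts of RNA, so it cannot measure the share of such cells. The part of such cells in the Adcy7 values was not tested.

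Adcy9 encodes a widely expressed cyclase that responds poorly to forskolin, and it was read by 4 probe sets, all tested. Its leading probe set 1418586_at stood at 7.00 and 7.16 on the control arrays and at 7.88 and 7.87 on the Myc-depleted arrays. The difference was 0.79 (SE 0.12, unadjusted p = 0.0029, adjusted p = 0.317), a level of 173% of control. Probe set 1419811_at stood at 6.89 and 7.06 against 7.81 and 7.52, and 1449620_s_at at 6.33 and 6.28 against 6.92 and 7.11. The lowest, 1434454_at, stood at 5.51 and 5.39 against 5.77 and 5.86. In all 4 the Myc-depleted arrays lay above both controls, with differences of 0.37 to 0.79 and unadjusted p from 0.0029 to 0.0373. These probe sets read one gene and are not independent of each other.

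Adcy1, a calcium and calmodulin stimulated cyclase best known from neurons, was higher by a smaller margin. Probe set 1456487_at stood at 7.50 and 7.55 in control and at 8.08 and 7.98 in Myc-depleted cells, a difference of 0.50 (SE 0.12, unadjusted p = 0.0117, adjusted p = 0.384). Its other probe set, 1445359_at, stood at 5.56 and 5.60 against 5.69 and 5.72. That difference of 0.13 (SE 0.11) was close to its error, although the groups did not overlap.

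Adcy6, which calcium inhibits and which is a main cyclase of many epithelial and muscle cells, had the probe set with the highest mean among the cyclases. It stood at 9.05 and 9.42 in control and at 9.62 and 9.13 in Myc-depleted cells, so the groups overlapped (difference 0.14, SE 0.24, 95% confidence interval -0.53 to 0.81). The 4 probe sets of Adcy3, another calcium and calmodulin stimulated enzyme, differed by -0.23 to 0.20 and did not share a sign. Adcy2, Adcy4 and Adcy5 differed by 0.06, -0.01 and 0.07, each less than its SE. Adcy2 and Adcy4 belong with Adcy7 to the isoforms enhanced by beta-gamma subunits, and neither was lower by more than its error.

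**Figure D1:**
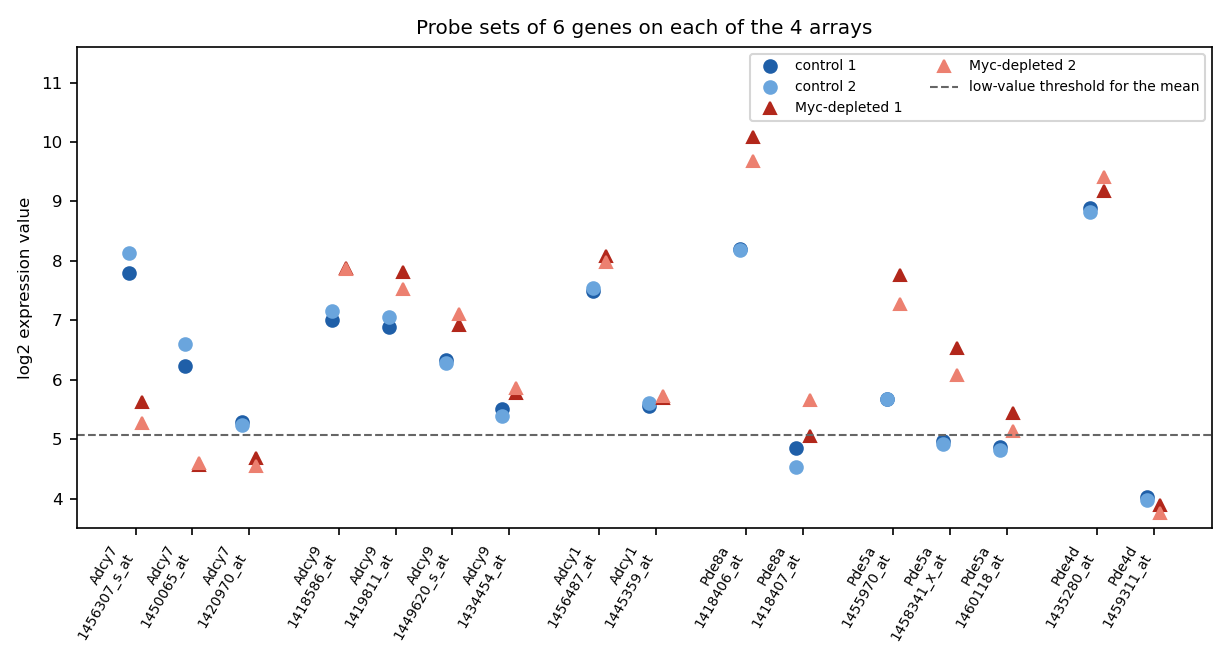
Log2 expression values (vertical axis) of all probe sets of the 6 genes with an unadjusted p under 0.05 on a tested probe set (horizontal axis), with 1 point per array, circles for control and triangles for Myc-depleted, and a dashed line at the filter threshold of 5.08. Adcy7 lies lower on both Myc-depleted arrays in all 3 of its probe sets, and Adcy9, Adcy1, Pde8a and Pde5a lie higher on both, while the probe sets of Pde4d run in opposite directions.

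Among the phosphodiesterases, Pde8a and Pde5a were over 2-fold higher in Myc-depleted cells, Pde4d was higher by less, and no tested probe set was lower at an unadjusted p under 0.05. Pde8a is a high-affinity enzyme for cyclic AMP that common broad inhibitors of the family do not block. Its probe set 1418406_at stood at 8.21 and 8.19 in control and at 10.08 and 9.68 in Myc-depleted cells. The controls nearly coincided and both Myc-depleted arrays lay well above them, at 322% of control (difference 1.69, SE 0.18, 95% confidence interval 1.19 to 2.18, unadjusted p = 0.000678, adjusted p = 0.263). The single array comparisons ran from 1.48 to 1.90. The second probe set, 1418407_at, was under the filter at 4.85 and 4.53 against 5.05 and 5.65, and was also higher. Pde8b, the sister enzyme, stood at 5.21 and 5.08 against 5.39 and 5.82. Its difference of 0.47 (SE 0.19, unadjusted p = 0.0731) did not pass, and an untested probe set differed by 0.51.

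Pde5a, the cyclic GMP specific enzyme of smooth muscle and the target of sildenafil, was read by 3 probe sets. Probe set 1455970_at stood at 5.68 on both control arrays and at 7.77 and 7.28 on the Myc-depleted arrays, a difference of 1.85 (SE 0.20, unadjusted p = 0.000807, adjusted p = 0.263), or 360% of control. Probe set 1458341_x_at stood at 4.97 and 4.92 against 6.53 and 6.08, a difference of 1.36 (SE 0.19). It passed the filter only through the Myc-depleted arrays, and its control mean of 4.94 is under the threshold, where background light compresses differences. The third, 1460118_at, was not tested at 4.86 and 4.82 against 5.44 and 5.13. All 3 probe sets were higher on both Myc-depleted arrays. Since Pde5a is known from smooth muscle and related mesenchymal cells, their markers are given beside it. All 10 fibroblast and mesenchymal markers were on the array and 9 were tested. Dcn (0.67), Pdgfra (1.23) and Pdgfrb (0.44) were higher and Thy1 (-1.26) was lower at an unadjusted p under 0.05, and Acta2, the smooth muscle actin, differed by -0.13. Thy1 passed the filter only through the control arrays, with a Myc-depleted mean of 4.71. The summed level of the 10 ran from 16.41 to 16.53 in control and from 16.34 to 16.51 in Myc-depleted cells. That sum is carried by its brightest probe sets, those of Col1a2, Vim and Acta2, and the differences of Dcn, Pdgfra and Thy1 barely enter it. It therefore cannot measure the share of such cells, and the part of such cells in the Pde5a values was not tested.

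Pde4d, a cyclic AMP specific enzyme that rolipram inhibits, stood at 8.88 and 8.82 in control and at 9.18 and 9.41 in Myc-depleted cells on probe set 1435280_at. The difference of 0.44 (SE 0.14) had an unadjusted p of 0.031 and an adjusted p of 0.449. Its other probe set, 1459311_at, was not tested, stood at 4.02 and 3.98 against 3.89 and 3.75 and ran the other way. Pde4b, the inducible member of the same subfamily, differed by 0.03 and 0.06 on its 2 tested probe sets, and Pde4a by 0.05, each less than its SE.

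The enzymes that act on both cyclic AMP and cyclic GMP were mostly higher, but none had an unadjusted p under 0.05. Of their 9 tested probe sets, 8 had a difference above 0, beside 49.5% of all tested, with a median of 0.24. Pde2a, which cyclic GMP stimulates, held the phosphodiesterase probe set with the highest mean, at 10.75 and 10.81 in control and at 10.87 and 11.33 in Myc-depleted cells (difference 0.32, SE 0.20). Pde3b, which insulin activates and cyclic GMP inhibits, stood at 10.49 and 10.41 against 10.73 and 10.65 (difference 0.24, SE 0.12). The calcium and calmodulin dependent Pde1a and Pde1b differed by 0.42 (SE 0.22) and 0.32 (SE 0.17). The groups did not overlap for these 4 of the 9 probe sets (44.4%), near the 41.1% of all tested probe sets, and each missed the test. Pde2a probe sets 1452202_at and 1447708_x_at differed by 0.36 and 0.08 with overlapping groups. Probe sets of Pde3a, Pde10a and Pde11a differed by -0.05 to 0.07. Of the photoreceptor family, Pde6a, Pde6b and Pde6c were under the filter. Its tested members Pde6d, Pde6g and Pde6h were near 0, from -0.07 for Pde6g to 0.23 for Pde6h. The 3 probe sets of Pde12 ran from -0.05 to 0.03.

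**Figure D2:**
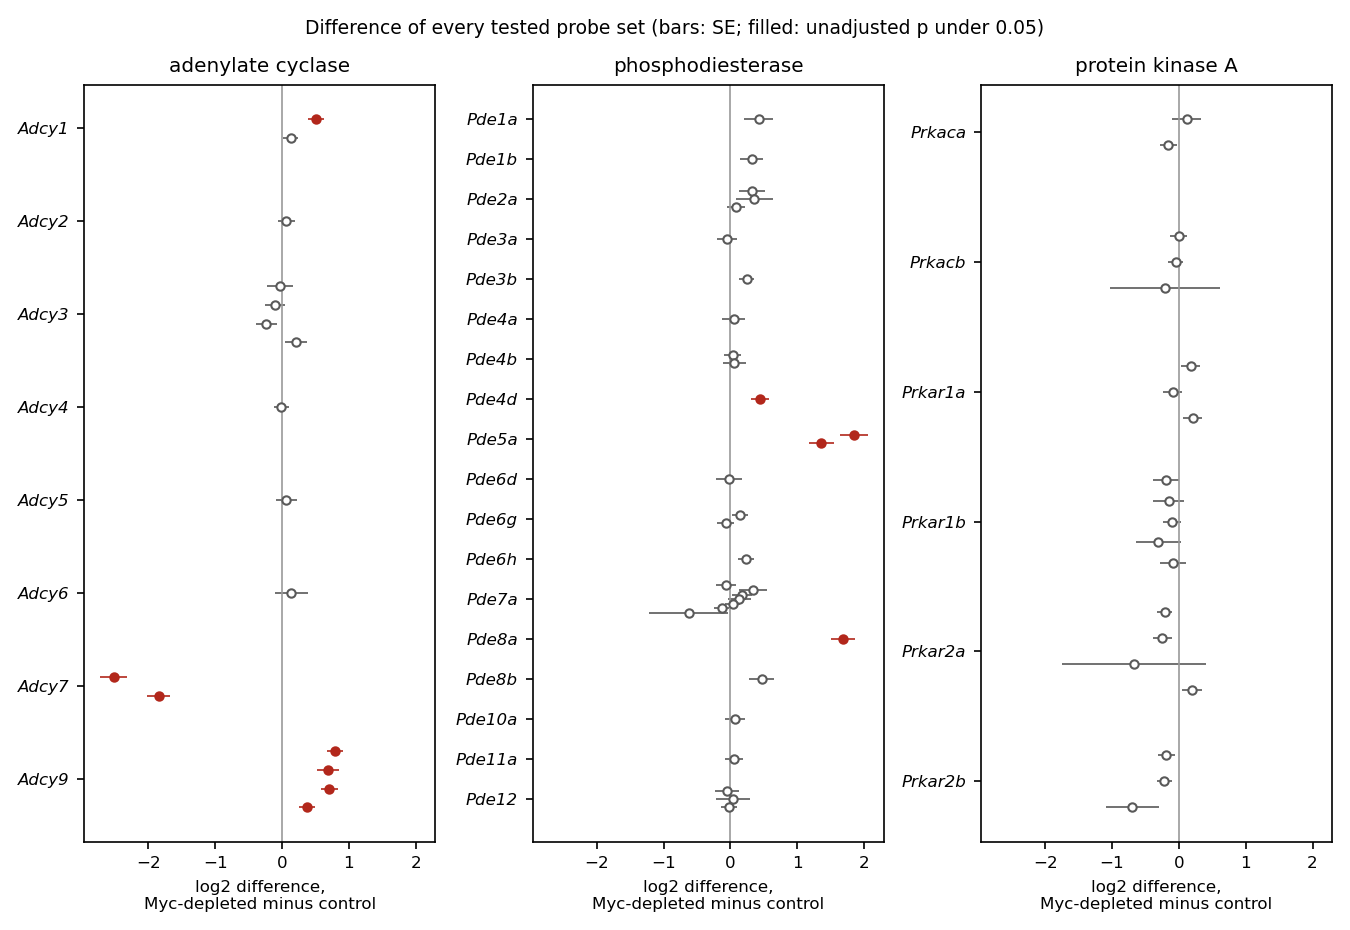
Log2 difference, Myc-depleted minus control (horizontal axis), of all 67 tested probe sets by gene (vertical axis) in the 3 families, with points for the difference, bars for its SE and filled points where the unadjusted p is under 0.05. Adcy7 stands alone at -2.52 and -1.84, Pde5a and Pde8a lie between 1.36 and 1.85, and the protein kinase A probe sets lie between -0.70 and 0.20 with none filled.

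No protein kinase A subunit had an unadjusted p under 0.05 on any of its 20 probe sets, all of which passed the filter. Small differences were mostly negative, with 16 of 20 probe sets below 0 and a median of -0.15, where 13,643 of all 27,022 tested were below 0. The 20 probe sets read 6 genes, and probe sets of the same gene are not independent of each other. Prkar1a, the main regulatory subunit of most cells, had the probe set with the highest mean, at 12.16 and 12.05 in control and at 12.15 and 12.40 in Myc-depleted cells, and its 3 probe sets differed by -0.09 to 0.20. The 5 probe sets of Prkar1b, the brain-enriched type I subunit, differed by -0.31 to -0.09, all of them with overlapping groups.

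The type II regulatory subunits, which anchoring proteins hold at membranes and organelles, were slightly lower in their brighter probe sets. Prkar2a probe set 1452915_at stood at 10.46 and 10.54 in control and at 10.31 and 10.28 in Myc-depleted cells (difference -0.21, SE 0.11, unadjusted p = 0.136). Prkar2b probe set 1456475_s_at stood at 10.71 and 10.75 against 10.63 and 10.46 (difference -0.19, SE 0.12, unadjusted p = 0.203). A second probe set of each ran the same way without overlap, 1428783_at of Prkar2a at -0.24 and 1438664_at of Prkar2b at -0.22. The dim Prkar2a probe set 1432409_at ran the other way, also without overlap. It stood at 4.96 and 5.25 in control and at 5.32 and 5.29 in Myc-depleted cells (difference 0.20, SE 0.15). Over all 20 kinase probe sets the groups did not overlap in 8, 40%, near the 41.1% of all tested.

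The catalytic subunits were nearly level. Prkaca probe set 1447720_x_at, with the highest mean among them, stood at 10.47 and 10.24 in control and at 10.24 and 10.71 in Myc-depleted cells (difference 0.12, SE 0.21), and 1450519_a_at differed by -0.16 (SE 0.12). Prkacb probe set 1420611_at stood at 10.04 and 10.18 against 10.18 and 10.03. Its difference was 0.00 with a 95% confidence interval of -0.37 to 0.36, which bounds a difference in either direction at well under 2-fold for that probe set.

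Some probe sets of these genes followed the spike-ins as much as the groups or more. The 4 with the widest gap between the 2 pairs of arrays are named here, chosen after their values were seen. Prkar2a probe set 1427414_at stood at 6.79 on control 1 and 6.37 on Myc-depleted 2 but at 4.91 on control 2 and 3.99 on Myc-depleted 1. Prkacb probe set 1420610_at stood at 6.03 and 5.88 on the first pair and at 4.45 and 4.20 on the second. Both were high on the arrays with the low 3′ minus 5′ spike-in values, while brighter probe sets of the same genes were not. Pde7a, a cyclic AMP specific enzyme of T cells and other tissues, gave the same picture on 1451839_a_at, at 6.49, 5.65, 4.74 and 6.16 on control 1, control 2, Myc-depleted 1 and Myc-depleted 2, against -0.13 to 0.34 for the differences of its other 6 probe sets. Prkar2b probe set 1430640_a_at stood at 8.79, 8.32, 7.38 and 8.34 in that order, and followed the spike-ins and the groups about equally. Its gap between the pairs was 0.71, and its difference of -0.70 (SE 0.39) is the most negative among the kinase subunits. With the spike-in value of each array as a covariate that difference was -0.60. Control 1 and Myc-depleted 2 were both above or both below the other arrays in 30 of the 67 member probe sets, 44.8%, and in 46.4% of all those tested. None of the probe sets with an unadjusted p under 0.05 was among the 30, since their groups did not overlap.

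**Figure D3:**
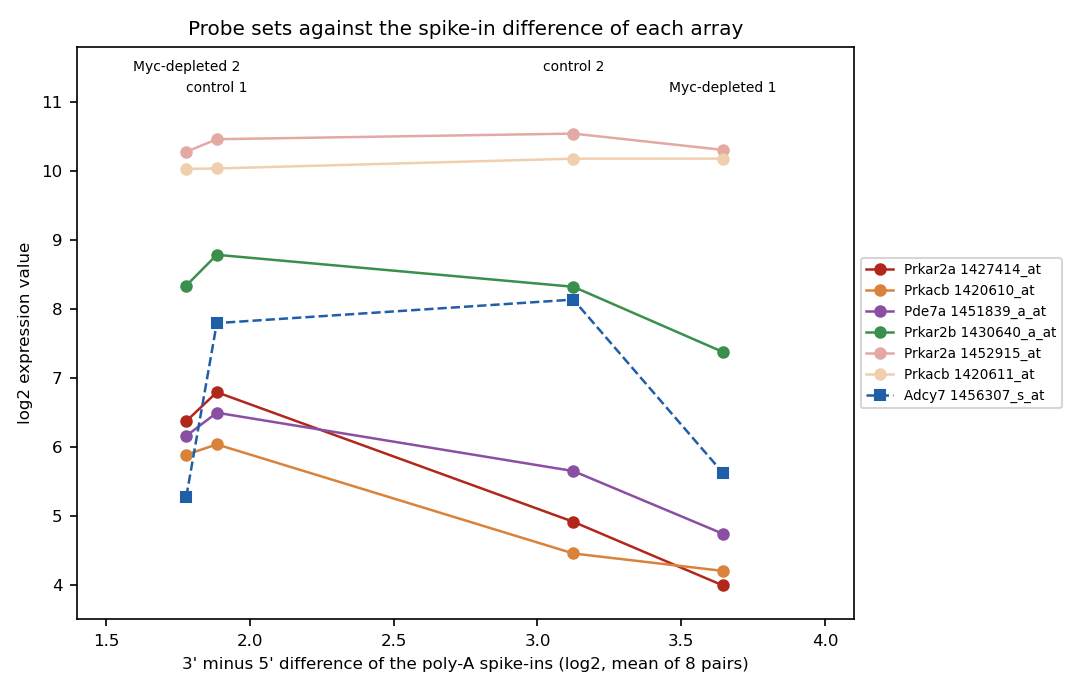
Log2 expression values (vertical axis) of 7 member probe sets on the 4 arrays, placed by the 3′ minus 5′ log2 difference of each array's poly-A spike-ins (horizontal axis), with lines joining the arrays. The 4 probe sets of Prkar2a, Prkacb, Prkar2b and Pde7a are lowest where the spike-in difference is 3.64, their brighter counterparts 1452915_at and 1420611_at stay between 10.03 and 10.54, and Adcy7 (dashed) is low on both Myc-depleted arrays at either end.

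Counted together, 0 of the 67 tested member probe sets were called at an adjusted p under 0.05 by limma, as was 0% of all 27,022, and the methods' ANOVA with the same adjustment also called 0. At an unadjusted p under 0.05, 11 member probe sets differed, 16.4% of those tested against 10.1% of all probe sets. Of these, 9 were higher, where the share of all probe sets was 5.63%, and 2 were lower, where it was 4.46%. They belong to 6 of the 32 tested genes, and 6 of the 11 are probe sets of Adcy7 and Adcy9. The count was 7 when control 1 is left out. A difference over 2-fold with that p was seen for 5 member probe sets, those of Adcy7, Pde5a and Pde8a, against 1.17% of all tested. These were 3 higher and 2 lower, against 0.651% and 0.518% of all. One of Adcy7 and one of Pde5a had passed the filter only through the group where they were high, and without them 3 of the 5 and 9 of the 11 were left, so these counts are descriptions. The 2 groups did not overlap in 30 member probe sets, 44.8%, against 41.1% of all, which is near the background. Taking for each gene its tested probe set with the highest mean, 6 of 32 genes had an unadjusted p under 0.05, against 12.2% of the 12,589 genes tested. They were 5 higher and 1 lower, against 6.96% and 5.23%. When each gene was instead the mean of its tested probe sets, Adcy7 was called (difference -2.18, adjusted p = 0.0374), as were 0.175% of all genes. That mean includes the Adcy7 probe set that passed the filter only through the control arrays.

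By family, the median difference was 0.10 over 16 adenylate cyclase probe sets, 0.08 over 31 phosphodiesterase probe sets and -0.15 over 20 protein kinase A probe sets, beside 0.00 over all probe sets tested. The adenylate cyclases held 7 of the 11 probe sets with an unadjusted p under 0.05, the phosphodiesterases 4 and protein kinase A 0. These were 43.8%, 12.9% and 0% of the tested probe sets of each family, beside 10.1% of all. The phosphodiesterase share is near that background, and of the cyclase probe sets Adcy9 gave 4 and Adcy7 gave 2. Of the phosphodiesterase probe sets 23 of 31 were above 0, against 49.5% of all. These medians move with single arrays: the phosphodiesterase median became 0.17 without control 2 and 0.18 without Myc-depleted 1, that of protein kinase A -0.08 without control 1 and -0.09 without Myc-depleted 1, and that of the cyclases 0.16 without Myc-depleted 2.

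With the spike-in difference of each array as a covariate, a fit with 1 residual degree of freedom that also called 11.9% of all probe sets tested, 13 member probe sets passed the adjusted threshold. These were both tested probe sets of Adcy7 and of Pde5a, 3 of Adcy9 and 1 each of Pde8a, Adcy1, Pde4d, Pde8b, Pde7a and Prkar2b. Among them, 1450065_at of Adcy7 and 1458341_x_at of Pde5a had passed the filter only through the group where they were high. On the leading probe sets the differences barely moved from the fit without the covariate, to -2.56 for Adcy7, 1.66 for Pde8a, 1.81 for Pde5a and 0.78 for Adcy9. The called probe sets of Pde7a (1451839_a_at) and Prkar2b (1430640_a_at) were named above as following the spike-ins. They moved more, from -0.62 to -0.47 and from -0.70 to -0.60.

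The other genes of the pathway were taken from 7 lists with 143 genes in all, of which 88 were tested with 1 probe set each. None was called by limma. At an unadjusted p under 0.05, 9 were higher and 7 lower, beside 6.96% and 5.23% of all genes tested, and the median difference was 0.01, beside 0.02 over all genes.

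Among 21 tested G protein subunits and regulators, 3 were higher and 3 lower at an unadjusted p under 0.05, beside 6.96% and 5.23% of all genes, with single members in both directions. Gnai1, an alpha subunit that inhibits several cyclases, stood at 6.11 and 6.73 in control and at 4.30 and 4.91 in Myc-depleted cells (difference -1.82, SE 0.33, unadjusted p = 0.0050). It passed the filter only through the control arrays, as its Myc-depleted mean of 4.61 is under the threshold. On their brightest probe sets, Gnai3 stood at -0.35 (unadjusted p = 0.0360), Gnai2 at 0.15 with overlapping groups and Gnao1 at 0.56 (SE 0.22, unadjusted p = 0.0634). These other inhibitory alpha subunits thus did not share one direction, and the probe sets of single genes differed too. Over the tested probe sets, Gnai2 ranged from -0.24 to 0.15, Gnao1 from -0.01 to 0.56 and Gnai3 from -0.35 to -0.10. Gnb4, a beta subunit, stood at 8.73 and 8.85 against 7.32 and 7.77 (difference -1.24, SE 0.20). On these probe sets of Gnai1 and Gnb4 the group means lay over 2-fold apart. The other tested probe set of Gnai1 differed by -0.61, under 2-fold, and that of Gnb4 by -1.11. Higher were Rgs2 (0.59), a regulator that dampens G protein and cyclase signalling, Gpsm1 (0.50), which holds inhibitory alpha subunits in their resting form, and Ric8b (0.37), a chaperone of the stimulatory alpha subunit. The tested probe sets of Rgs2 ranged from 0.11 to 0.59. Of 13 tested receptors that couple to the stimulatory G protein and their ligands, Adcyap1r1, the PACAP receptor, stood at 7.96 on both control arrays and at 6.57 and 6.80 on the Myc-depleted arrays (difference -1.27, SE 0.13, unadjusted p = 0.00068). The other tested probe set of Adcyap1r1 differed by -0.42. Adm, the vasodilator peptide adrenomedullin, was higher by 0.56 (SE 0.13), and the other 11 did not pass.

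Downstream, 3 of 17 tested anchoring proteins and kinase inhibitors were higher and none was lower at that p, beside 6.96% and 5.23% of all genes. Akap7, an anchoring protein of protein kinase A, stood at 7.05 and 7.12 in control and at 7.90 and 7.97 in Myc-depleted cells (difference 0.85, SE 0.11, unadjusted p = 0.00177). Pkig, an inhibitor of the catalytic subunits, was higher by 0.53 (SE 0.12), and the scaffold Akap12 by 0.44 (SE 0.12). The list's median was 0.03. None of 7 tested other effectors and exporters passed. Of 12 CREB factors and coactivators, Sik2, a kinase that keeps CREB coactivators out of the nucleus, was higher by 0.53 and Creb5 lower by 0.80 on the log2 scale, although Creb5 passed the filter only through the control arrays. The tested probe sets of Sik2 ranged from 0.01 to 0.53.

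The genes that cyclic AMP is known to induce did not share a direction between the groups. Of 14 tested, 6 were above 0 and 8 below, with a median of -0.03. Fos stood at 7.51 and 8.38 in control and at 9.88 and 7.28 in Myc-depleted cells (difference 0.64, SE 0.97). Nr4a1 stood at 9.22 and 10.37 against 10.14 and 8.98, and Per1 at 6.64 and 7.56 against 8.11 and 6.71. Each was low where the 3′ minus 5′ spike-in value was low, and each group difference was under its SE. Crem was high there instead. Their signs thus say little about the groups, and the output of cyclic AMP was not tested. Ptgs2, the inducible cyclooxygenase, stood at 12.29 and 12.51 in control and at 11.12 and 11.00 in Myc-depleted cells (difference -1.34, SE 0.14, unadjusted p = 0.000644), over 2-fold lower, and its other tested probe set differed by -2.11. Rgs2, a member of this list too, was the only one higher at an unadjusted p under 0.05, and Ptgs2 the only one lower. The shares of all genes were 6.96% and 5.23%. Dusp1, a phosphatase of MAP kinases, differed by 0.65 (SE 0.25, unadjusted p = 0.0625). On the cyclic GMP side, which Pde5a limits, 7 genes were tested. Npr3, the natriuretic peptide clearance receptor, was higher by 0.99 (SE 0.25), and Prkg2, a cyclic GMP dependent kinase, was lower by 0.64 on the log2 scale (SE 0.16).

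**Figure D4:**
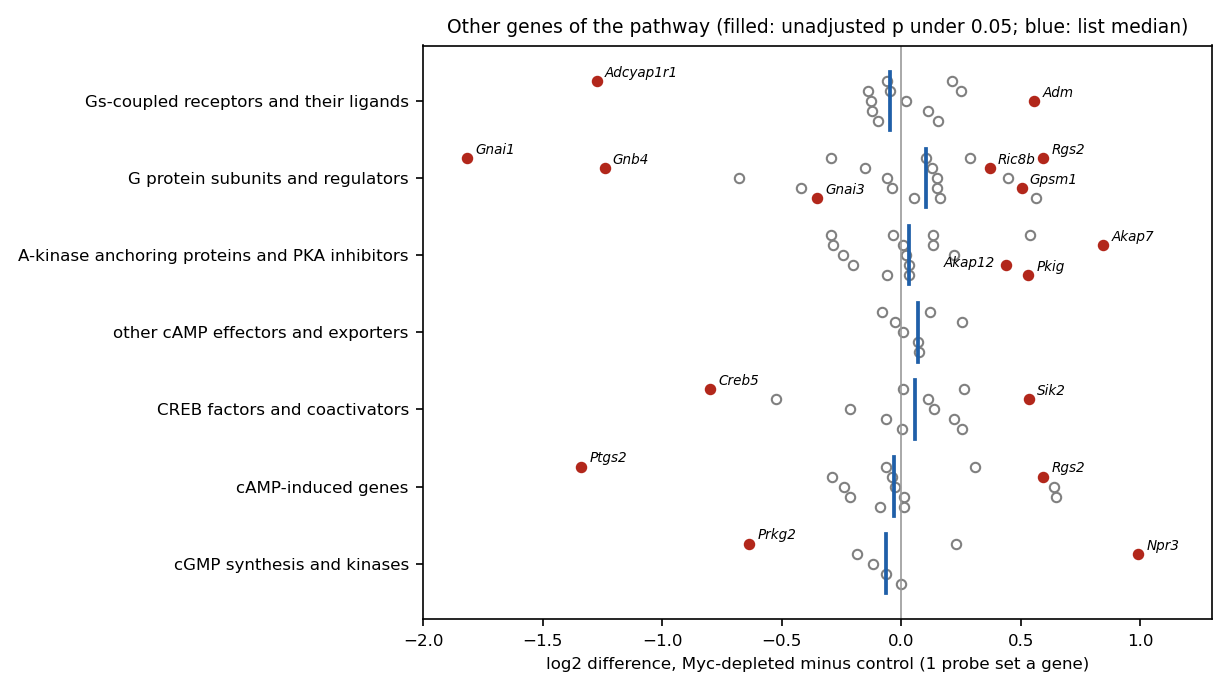
Log2 difference, Myc-depleted minus control (horizontal axis), of each tested gene in 7 lists of pathway genes (vertical axis), with 1 probe set a gene, filled and named where the unadjusted p is under 0.05 and with a blue bar at each list's median. The medians lie between -0.07 and 0.10, and Gnai1, Ptgs2, Adcyap1r1 and Gnb4 lie more than 1 below 0.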

How the data were processed

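Total RNA of 4 samples was hybridised to 1-colour arrays. The authors deposited normalised log2 values, made with Partek 6.4. The methods give Robust Multichip Average as the algorithm, the submitters' processing notes give GCRMA, and which of these made the values is not settled, which matters most for dim probe sets. No genome build is given in the sources used here. The array medians lay between 5.48 and 5.49.

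Of 45,101 probe sets, 64 control probe sets were left out. Gene names came from the platform annotation (34,945 probe sets with 1 symbol, 932 with several, 9,160 with none). Probe sets with a mean under the 40th percentile (5.08) were not tested, which left 27,022. The values as deposited went into lmFit and eBayes of limma 3.58.1 (R 4.3.3, 2 residual degrees of freedom, prior 2.02), with Benjamini-Hochberg adjustment over all tested probe sets and calls at 0.05, after a run of the same code on simulated data. Figures and promoter searches used Python 3.11.15. A pathway gene was read from its brightest tested probe set.

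The members and lists were chosen with earlier results of these data known, so their differences are descriptions. Genes were named if a tested probe set was over 2-fold different or had an unadjusted p under 0.05, or if their probe set had the highest mean of its role. Of each pathway list, up to 4 genes with the smallest p, those over 2-fold different and those needed to describe the list were named. The study's ANOVA ("the methods' ANOVA") was run with the group as factor. Other alternatives changed the low-value filter, scaling, floor or variance model, or used a replicate block, the spike-in covariate, each array left out and the probe set per gene. The number of arrays limits the precision.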

Additional observations from a re-analysis of the deposited data

How the results depend on the processing

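The differences of Adcy7, Adcy9, Adcy1, Pde8a, Pde5a and Pde4d kept their sign in 16 of 16 alternatives each, and no result was reversed. Most alternatives could not have changed these signs, so that count does not measure robustness. Changing the filter, floor, variance model or test, or adding a block, left these differences the same. Leaving out an array could not reverse them, since their groups did not overlap. Only scaling, the spike-in covariate and the mean of a gene's tested probe sets could have done so. No member was called with no filter, with a stricter one (60th percentile), with quantile or median scaling, with a floor, with other variance models or with the methods' ANOVA. The stricter filter left 3 probe sets over 2-fold, since fewer were tested, and a phosphodiesterase median of 0.21. With the spike-in covariate 13 were called and 20 had an unadjusted p under 0.05, with Adcy7 at -2.56 (adjusted p = 0.00034) and Pde8a at 1.66 (adjusted p = 0.0020). Over the alternatives the adjusted p of Adcy7 ran from 0.00034 to 0.99999 and that of Pde8a from 0.0020 to 0.99999.

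With the replicate number as a block, 0 members were called and 8 had an unadjusted p under 0.05. The 2 same-numbered pairs deviated in opposite directions (correlation -0.766 over 27,022 probe sets), so the numbers do not pair the arrays. The crossed pairing, chosen after seeing the data, called 1 member probe set (Adcy7, -2.52) and 21 in all.

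The mean of a gene's tested probe sets gave Adcy7 -2.18 (adjusted p = 0.0374), 1 of 22 genes called. For Adcy7 that mean includes the probe set that passed the filter only through the control arrays. With 1 probe set a gene the median was 0.19 for phosphodiesterases and -0.10 for protein kinase A. Leaving out each array in turn gave 7 (without control 1) to 14 probe sets with an unadjusted p under 0.05, and medians of 0.080 to 0.16 for cyclases, 0.078 to 0.18 for phosphodiesterases and -0.17 to -0.078 for protein kinase A, with 0 called each time. The cause of these shifts was not tested.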
